A study of Mus musculus with 6 samples.

Results

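The members were the genes of the heterotrimeric G protein cycle and of the proteins that switch it off: the α, β and γ subunits, the RGS proteins, the GRKs, the β-arrestins, the related α-arrestins and the Ric8 chaperones. They were chosen by symbol alone: rows named Gnb, Gng, Rgs or Grk followed by a digit, Gna followed by a digit or by i, q, o, t, z or l, and names that begin with Arrb1, Arrb2, Arrdc or Ric8. Gnas and names such as Gngt2 were thus left out. The rule found 50 of the 13283 genes in the deposited table, namely 10 Gα, 4 Gβ, 9 Gγ, 11 RGS, 5 GRK, 2 β-arrestin, 4 α-arrestin and 2 Ric8 genes, and 3 rows that share a name stem but not the role.

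RNA was measured by sequencing in brown adipocytes grown from an immortalized mouse brown preadipocyte line that stably expresses Cas9. The control group, Scr, carried a scrambled guide RNA and is labelled as wild type, and the MICT1 KO group carried guide RNAs against MICT1, with 3 libraries in each group. The knockout cells were sorted pools rather than clones, and the labels do not say which guide pool each library came from. All 6 libraries were given the adipogenic cocktail and, on day 6 of differentiation, 10 µM forskolin for 6 h. Forskolin switches adenylyl cyclase on directly, without a receptor or a G protein, so both groups were compared in the stimulated state and the table holds no unstimulated level. The targeted gene was not analysed here, so the genotype labels were taken as given. The deposited values are reads per gene scaled to a common library size, called normalised signal below. The libraries held an estimated 15445828 to 17925601 reads, and log2 values correlated at 0.988 to 0.990 within Scr, 0.987 to 0.988 within MICT1 KO and 0.929 to 0.940 between the groups.

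A G protein-coupled receptor acts by loading the Gα subunit with GTP, after which Gα and the Gβγ dimer part and each signals on its own. Gαs raises and Gαi lowers cAMP, and Gαq opens the phospholipase C route. RGS proteins end the signal by speeding up GTP hydrolysis on Gα, mainly of the Gi and Gq families. GRKs phosphorylate the active receptor and arrestins then bind it, which uncouples it from the G protein and draws it into the cell. In brown fat the best known use of this machinery is the β-adrenergic receptor, whose signal through Gs and cAMP drives lipolysis and heat production.

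Among the RGS genes, the R4 subfamily, mostly small proteins that consist of little more than the RGS domain, divided in direction: Rgs2 fell while Rgs4, Rgs16 and Rgs3 rose in MICT1 KO. Rgs2, Rgs4 and Rgs16 all lie on chromosome 1, and the 250 bases before each of their RefSeq start sites (GRCm38.p6) are shown because their transcripts moved apart. They are chr1:144004150-144004399 on the minus strand for Rgs2, chr1:169747643-169747892 on the minus strand for Rgs4 and chr1:153740103-153740352 on the plus strand for Rgs16. Capitals mark TGACG or its reverse complement CGTCA, the core of the cAMP response element bound by CREB.
Rgs2: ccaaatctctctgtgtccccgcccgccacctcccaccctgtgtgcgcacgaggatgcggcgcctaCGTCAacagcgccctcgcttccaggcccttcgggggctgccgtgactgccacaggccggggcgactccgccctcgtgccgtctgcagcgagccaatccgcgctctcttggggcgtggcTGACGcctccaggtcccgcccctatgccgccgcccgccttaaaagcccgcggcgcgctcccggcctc
Rgs4: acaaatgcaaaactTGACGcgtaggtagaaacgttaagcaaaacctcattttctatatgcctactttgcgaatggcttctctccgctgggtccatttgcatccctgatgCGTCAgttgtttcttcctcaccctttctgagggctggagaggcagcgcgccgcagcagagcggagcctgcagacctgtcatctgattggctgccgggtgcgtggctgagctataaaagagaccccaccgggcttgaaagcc
Rgs16: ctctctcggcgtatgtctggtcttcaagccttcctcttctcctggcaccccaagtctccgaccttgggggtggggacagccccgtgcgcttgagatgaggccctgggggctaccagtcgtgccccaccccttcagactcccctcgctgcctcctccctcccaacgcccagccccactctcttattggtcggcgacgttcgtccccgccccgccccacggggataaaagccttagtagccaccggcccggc
The Rgs2 stretch held the core 2 times, with the matches starting 185 and 67 bases before the start site, and the Rgs4 stretch held it 2 times, at 236 and 141 bases before it. No match was present in the Rgs16 stretch. The palindromic full element TGACGTCA, which contains the core on both strands, was in none of the windows of the 38 members that had one, against 3.51% of the genes of the table with a window. The core was found in 12 of those 38 members (31.6%), beside 35.3% of the genes of the table. These windows run from 250 bases before to 50 bases after the start, both strands were searched, and a match is a description of the sequence and not a site shown to be bound.

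Of the 44 members with a normalised signal of at least 10 in at least 3 libraries, 19 were higher and 6 lower in MICT1 KO than in Scr, and 19 were not called (limma-trend on log2(value + 1), two-sided, Benjamini-Hochberg adjusted p under 0.05 over 12507 genes). The share called, 56.8%, stood beside 56.9% of all genes tested, and the shares of all genes called were 28.5% higher and 28.3% lower. The members' calls therefore leaned to the higher side: their median log2 fold change was 0.14, against -0.0053 over all genes. A change of at least 2-fold was called upwards in 8 members (Gnao1, Gng4, Gng10, Rgs3, Rgs9, Rgs16, Rgs20 and Grk5) and downwards in 0, where 7.99% and 5.76% of all genes passed, 13.7% in either direction. The 3 libraries of each group did not overlap for 23 members above and 7 below Scr, 68.2% of those tested, against 62.0% of all genes. Gnat2, Gng3, Gng8, Rgs5, Rgs11 and Grk1 were too low to test, with single-library values from 1.05 to 20.3. Gng4 entered the test only through its knockout libraries, so its difference was built into its entry. Nothing in the labels says that the libraries of a group came from separate differentiations, so p-values measure the spread between these samples.

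**Figure D1:**
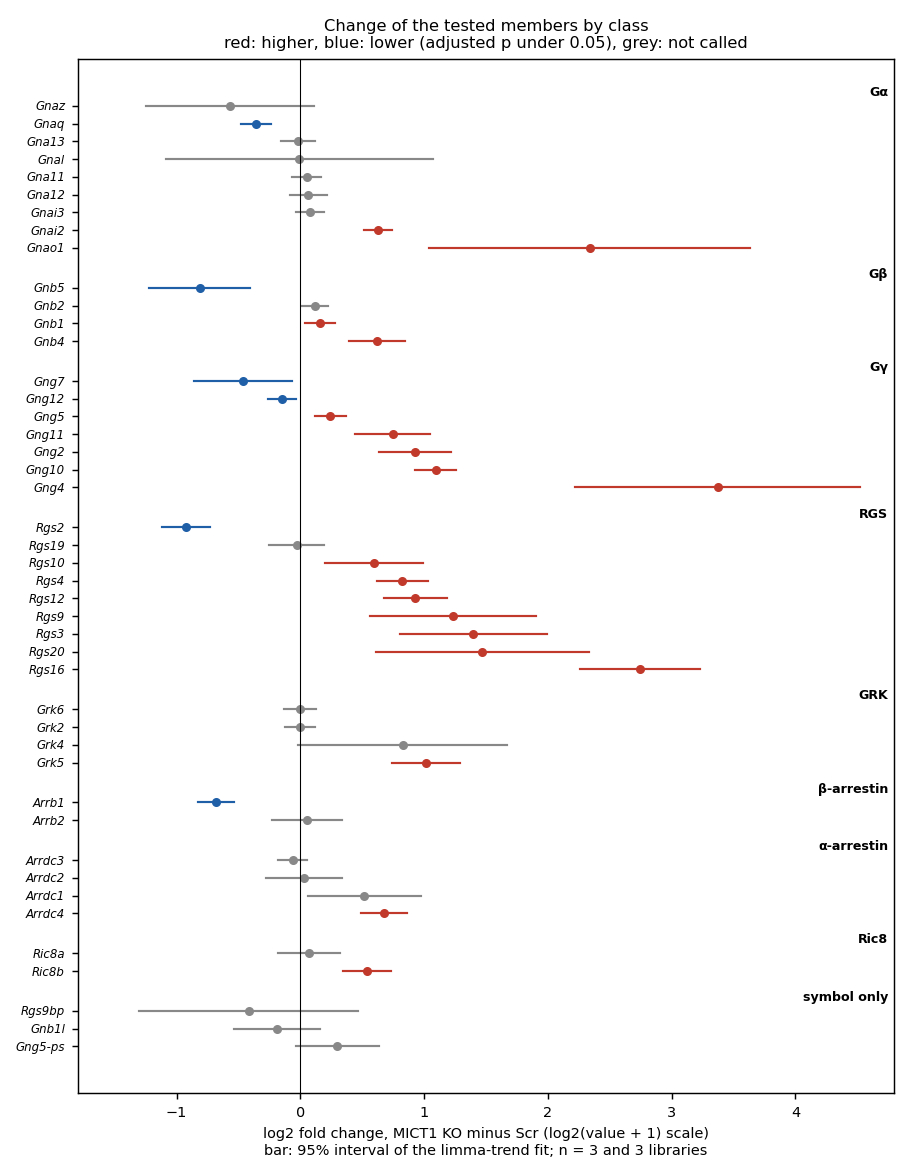
Log2 fold change of each of the 44 tested members (MICT1 KO minus Scr, on the log2(value + 1) scale, 3 libraries per group), grouped by class, with the 95% interval of the limma-trend fit as a bar. Of the 9 RGS genes 7 are higher (red), whereas the largest β-arrestin change, Arrb1 at -0.68, is lower (blue), and the GRK genes Grk2 and Grk6 sit on 0 (grey).

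The RGS genes were the class with the largest median log2 change, 0.93 over the 9 tested, with 7 higher, 1 lower and 1 not called, beside 28.5% and 28.3% of all genes called higher and lower. Rgs2 (chromosome 1, 143999338 to 144004161), an R4 protein best known for acting on Gαq and a transcript that cAMP raises in many cells, had a normalised signal of 808, 835 and 874 in Scr, against 489, 399 and 441 in MICT1 KO. All 3 knockout libraries were below all 3 Scr libraries, and the transcript fell by 0.92 on the log2 scale (SE 0.092, adjusted p = 2.82e-08), a 1.90-fold difference. Rgs4 (chromosome 1, 169741477 to 169747642), which acts on Gi and Gq, had 538, 408 and 439 in Scr, against 807, 846 and 786 in MICT1 KO. It thus rose where Rgs2 fell, by 0.82 on the log2 scale (SE 0.099, adjusted p = 4.54e-07). Rgs16 (chromosome 1, 153740349 to 153745468), another R4 protein that acts on Gi and Gq, had 21.8, 26.9 and 33.6 in Scr, against 205, 173 and 183 in MICT1 KO. That was a rise of 2.74 on the log2 scale (SE 0.234, adjusted p = 2.66e-09), or 6.70-fold, from a low starting level. Rgs5, the neighbour of Rgs4 on chromosome 1, stayed between 1.85 and 11.4 in all 6 libraries and was not tested.

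Per length, the R4 genes together went from 24.2 ± 1.39 RPKM (SD, n = 3) in Scr to 29.0 ± 0.955 in MICT1 KO. The make-up of that sum also differed. Rgs2 gave 58.5% ± 3.56 (SD, n = 3) of R4 RPKM in Scr and 25.7% ± 1.78 in MICT1 KO. Rgs4 gave 37.5% ± 4.25 and 55.4% ± 3.25, and Rgs16 gave 2.96% ± 0.655 and 16.9% ± 0.873. Rgs2 was therefore the leading R4 transcript in each Scr library and Rgs4 in each knockout library, a comparison of RPKM shares for which no test was made.

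Of the other 6 RGS genes tested, 5 rose and Rgs19 was not called. Rgs3, the largest R4 protein, had 26.7, 35.2 and 29.5 in Scr, against 111, 61.1 and 79.8 in MICT1 KO (log2 fold change 1.40, SE 0.284, adjusted p = 0.000281). Rgs20, of the Gz-selective RZ group, had 11.9, 18.5 and 12.2 against 62.9, 23.2 and 44.6 (log2 fold change 1.47, SE 0.413, adjusted p = 0.00477). Rgs9, of the R7 group, had 21.8, 31.5 and 22.4 against 41.0, 74.8 and 69.4 (log2 fold change 1.23, SE 0.321, adjusted p = 0.00269). R7 proteins are stable only when bound to Gβ5, and Gnb5, which encodes it, fell, as described with the Gβ genes. In all 3 of these genes the knockout libraries lay above Scr but were spread widely, and the signal was low. Rgs12, a large scaffold that also binds Gαi through a GoLoco motif, rose by 0.93 (adjusted p = 1.72e-06), and Rgs10, a small Gi-directed protein, rose by 0.59 (adjusted p = 0.0114). The Rgs10 call rested on 1 library, since leaving out knockout library 1 (signal 186, against 125 and 144) gave 0.44 and an adjusted p of 0.0827. Rgs19, which ranked near Rgs2 and Rgs4 per length at 10.6 RPKM in Scr and 10.5 in MICT1 KO, was not called (log2 fold change -0.03, 95% interval -0.25 to 0.19). Rgs11, the other R7 gene in the table, reached 16.9 at most and was not tested.

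**Figure D2:**
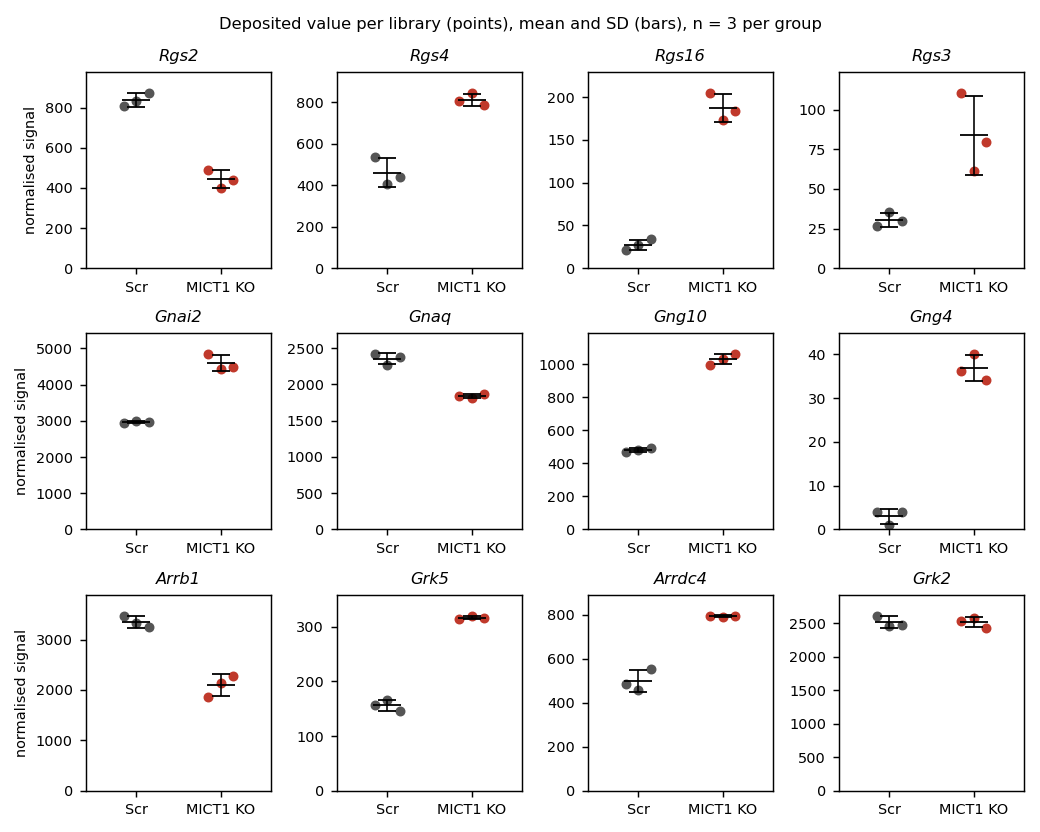
Normalised signal of 12 members in each library (points; Scr grey, MICT1 KO red), with the mean and SD of the 3 libraries as bars and each vertical axis starting at 0. The groups separate for every gene but Grk2, with Rgs2, Gnaq and Arrb1 lower in the knockout libraries and the other 8 higher. The 12 genes are a selection, all called members but Grk2, so their separation came with the choice. Of all genes tested, 62.0% did not overlap.

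Gα genes moved less, with 2 of 9 higher, 1 lower and a median log2 change of 0.051. Of all genes tested, 28.5% were called higher and 28.3% lower. Gnai2 (chromosome 9, 107614125 to 107635367), an inhibitor of adenylyl cyclase, had 2945, 2982 and 2965 in Scr, against 4839, 4433 and 4491 in MICT1 KO. All knockout libraries were higher, by 0.63 on the log2 scale (SE 0.055, adjusted p = 3.95e-09), or 1.55-fold. Gnai3, a Gαi of the same function and the most abundant Gα per length in Scr, had 3662, 3726 and 3733 against 4142, 3862 and 3753. Its difference of 0.08 (95% interval -0.04 to 0.19, adjusted p = 0.234) did not pass the test. Gnai3 thus made up 58.8% ± 0.119 of the Gi/o RPKM in Scr and 49.5% ± 0.492 in MICT1 KO, while Gnai2 went from 40.6% ± 0.171 to 50.01% ± 0.547 (SD, n = 3). The summed Gi/o level was 118 ± 0.925 RPKM in Scr and 149 ± 6.31 in MICT1 KO, a ratio of 1.26, and the libraries did not overlap.

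Gnaq (chromosome 19, 16132831 to 16387463), the Gα that activates phospholipase Cβ, had 2416, 2274 and 2377 in Scr, against 1842, 1814 and 1862 in MICT1 KO. It fell by 0.36 on the log2 scale (SE 0.058, adjusted p = 2.53e-05). Gna11, its close relative with the same effectors and the higher level per length (37.7 RPKM in Scr, 39.2 in MICT1 KO), was not called (0.05, 95% interval -0.07 to 0.17). Neither gene of the G12/13 family was called, with 0.07 for Gna12 and -0.02 for Gna13. Gnao1, a Gαo typical of neurons, had 11.9, 4.63 and 1.02 against 27.6, 19.0 and 32.1. It was called higher by 2.34 (SE 0.622, adjusted p = 0.00313), but at well under 1 RPKM, and the value ranged from 1.65 without Scr library 3 to 2.98 without Scr library 1. A pseudocount of 5 gave 1.63. Gnao1 reached a signal of 10 in 1 Scr library and 3 knockout libraries, so its entry to the test leaned on the knockout group. Gnaz, a Gi-like subunit, had 31.7, 42.6 and 40.7 against 22.9, 28.4 and 24.9, which did not overlap but did not pass the test either (-0.57, adjusted p = 0.147). Gnal, the Gs-like subunit of olfactory neurons, lay between 9.003 and 33.7 with the groups overlapping, and the transducin gene Gnat2 was not tested.

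Gβ1 and Gβ2 transcripts made up nearly all of the Gβ RPKM, in close to equal parts. Gnb1 had 7027, 6993 and 7173 in Scr, against 8483, 7267 and 7928 in MICT1 KO, a rise of 0.16 (SE 0.057, adjusted p = 0.0243). That call was lost with quantile normalization (0.11, adjusted p = 0.101) and without Scr library 1, Scr library 2, knockout library 1 or knockout library 3, where the adjusted p was 0.0578, 0.0790, 0.122 and 0.0682. Gnb2 differed by 0.12 and just missed the threshold (adjusted p = 0.0543), but passed it when scaled by library total (adjusted p = 0.0403), with quantile normalization (0.0237), with limma-voom (0.0338) and without knockout library 2 (0.0481). Gnb4, a scarcer conventional Gβ, had 295, 319.9 and 269 against 472, 438 and 446, a rise of 0.62 (SE 0.109, adjusted p = 5.94e-05). Gnb5 (chromosome 9, 75306288 to 75345876), the atypical Gβ that pairs with R7 RGS proteins in place of Gγ, had 185, 129.8 and 156 against 78.2, 81.1 and 107. It fell by 0.81 on the log2 scale (SE 0.196, adjusted p = 0.00137), the reverse of its partner Rgs9.

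Every tested Gγ gene was called, 5 higher and 2 lower of 7, with a median log2 change of 0.75, where 28.5% of all genes were called higher and 28.3% lower. Gng4, among the 5, was tested only because of its knockout libraries. Gγ subunits anchor the Gβγ dimer in the membrane through a lipid tail and differ in which receptors and effectors they serve. Gng10 (chromosome 4, 59035088 to 59041903) had 469.8, 483 and 494 in Scr, against 997, 1034 and 1059 in MICT1 KO, a rise of 1.09 (SE 0.080, adjusted p = 2.16e-10), or 2.13-fold. It shares 72.0% of its exon length, on the same strand, with the annotated gene Gm20503, so its reads cannot be fully assigned, and Dnajc25, the next gene, went the other way (-0.24, adjusted p = 0.0446). Gng4, found mostly in neurons, had 3.96, 0.927 and 4.07 in Scr, against 36.2, 40.0 and 34.2 in MICT1 KO (log2 fold change 3.37, SE 0.552, adjusted p = 2.53e-05). Because the Scr values were so low its size depended on the scale, with 2.41 at a pseudocount of 5 and 2.91 without Scr library 2. Gng2 rose by 0.93 (142, 184 and 154 against 301, 325 and 285, adjusted p = 9.84e-06) and Gng11, a farnesylated form, by 0.75 (176, 146 and 155 against 286, 233 and 283, adjusted p = 0.000178).

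The 2 most abundant Gγ genes per length moved little and in opposite directions. Gng12 had 4402, 4783 and 4836 in Scr, against 4138, 4279 and 4246 in MICT1 KO, a call of -0.15 (adjusted p = 0.0284) that was lost without Scr library 2 (adjusted p = 0.110), Scr library 3 (0.102), knockout library 1 (0.0625) or knockout library 3 (0.0608). Gng5 had 2336, 2308 and 2430.3 against 3032, 2645 and 2711, a rise of 0.24 (adjusted p = 0.0022), though it can share reads with its pseudogene copy Gng5-ps. Gng7, a partner of Gαolf and Gαs in the brain, had 109.8, 127 and 146 against 93.4, 99.0 and 82.9. Its call of -0.46 (adjusted p = 0.044) was lost without Scr library 2 (0.0932), Scr library 3 (0.171), knockout library 1 (0.0655) or knockout library 3 (0.125), and also with no filter on low values (0.0507). In RPKM the class as a whole went from 151 ± 3.62 to 189.6 ± 2.99 (SD, n = 3), and Gng12 gave 40.1% ± 1.19 of it in Scr against 28.9% ± 1.05 in MICT1 KO, Gng10 14.9% ± 0.0674 against 25.3% ± 1.10. Gng3 and Gng8 were not tested.

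**Figure D3:**
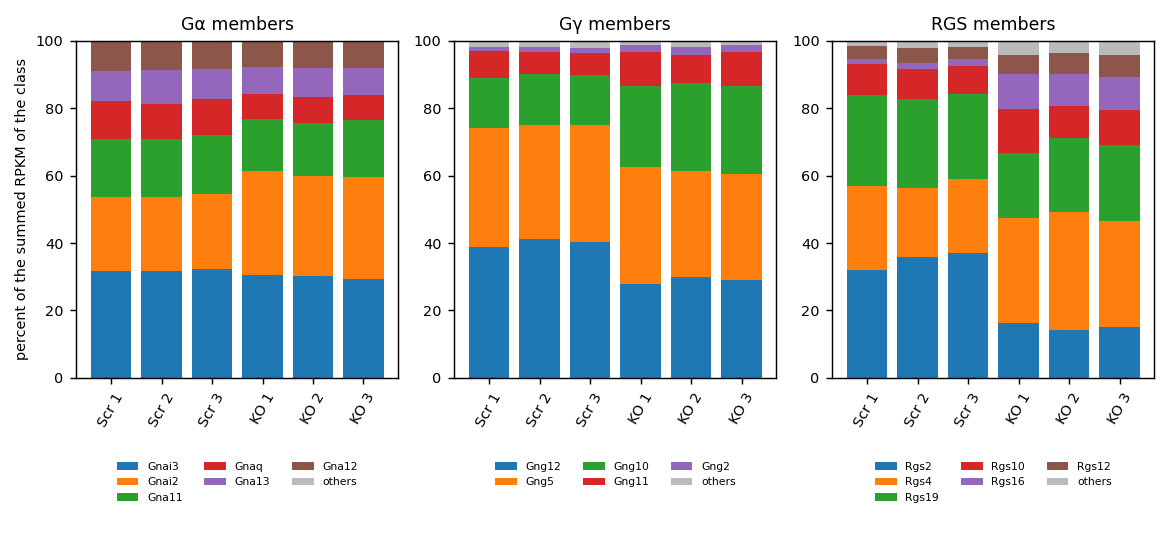
Share of each class's summed RPKM taken by its most abundant genes in each of the 6 libraries (stacked bars, percent), for the Gα, Gγ and RGS classes. Gnai2 and Gng10 take a larger part in every knockout library than in any Scr library, and Rgs2 drops from 35.0% to 15.1% of RGS RPKM on average while Rgs16 goes from 1.78% to 9.92%.

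The kinases that desensitize receptors showed 1 call in 4 tested, beside 56.9% of all genes tested. Grk2, the ubiquitous kinase that Gβγ brings to the β-adrenergic receptor, had 2611, 2455 and 2472 in Scr, against 2535, 2573 and 2427 in MICT1 KO, with a 95% interval of -0.12 to 0.12 for the log2 difference. Grk6, the other abundant member, was at 26.2 RPKM in both groups. Grk5 (chromosome 19, 60889749 to 61095968), which sits at the membrane without needing Gβγ, had 156, 166 and 147 against 314, 320.3 and 316, a rise of 1.02 (SE 0.131, adjusted p = 1.22e-06), or 2.02-fold. Even so it made up only 4.31% ± 0.0632 of GRK RPKM in MICT1 KO, after 2.18% ± 0.115 in Scr, and the summed GRK level overlapped between the groups (62.2 ± 2.09 and 63.8 ± 1.68 RPKM). Grk4 lay at 10.9 to 42.9 and was not called (0.83, adjusted p = 0.0882), but was called without Scr library 2 (1.18, adjusted p = 0.0308), while Grk1 was not tested.

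Of the β-arrestins, which bind phosphorylated receptors, Arrb1 (chromosome 7, 99535466 to 99606771) had 3477, 3321 and 3252 in Scr, against 1851, 2147 and 2280.4 in MICT1 KO. It fell by 0.68 on the log2 scale (SE 0.069, adjusted p = 3.22e-08), or 1.61-fold. Arrb2, its partner with largely overlapping function, was not called (0.05, 95% interval -0.23 to 0.34). Since Arrb1 was the larger part, 79.3% ± 0.652 of β-arrestin RPKM in Scr and 69.6% ± 3.84 in MICT1 KO, the summed level was 23.1 ± 1.29 RPKM in Scr and 16.5 ± 1.24 in MICT1 KO, a ratio of 0.713. The β-arrestins were the one class of these 8 whose summed RPKM was lower in every knockout library than in every Scr library, and GRK and α-arrestin sums overlapped.

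α-Arrestins carry an arrestin fold and recruit ubiquitin ligases to membrane proteins. Arrdc3, which targets the β-adrenergic receptor in fat, was the most abundant, with 4832, 5283 and 4717 in Scr, against 4860.3, 4733 and 4601 in MICT1 KO (log2 difference -0.06, 95% interval -0.18 to 0.05), and was not called. Arrdc4 (chromosome 7, 68736995 to 68749241), known for its response to glucose and its action on glucose transporters, had 484, 457 and 555 against 797, 791 and 796, a rise of 0.68 (SE 0.090, adjusted p = 1.70e-06). Arrdc1, which buds vesicles from the membrane, was at 60.04 to 67.3 in Scr and 78.8 to 105 in MICT1 KO. At 0.52 it just missed the threshold (adjusted p = 0.0503) and passed it when scaled by library total (adjusted p = 0.0485), at a pseudocount of 5 (0.0469) and without knockout library 3 (0.0384). Arrdc2 was not called (adjusted p = 0.874). Of the chaperones that fold new Gα, Ric8b, which serves Gαs and Gαolf, had 453, 483 and 425 against 628, 652 and 698, a rise of 0.54 (SE 0.092, adjusted p = 4.04e-05). Ric8a, which serves the Gi, Gq and G12/13 families, was not called (0.07, adjusted p = 0.634). The 3 rows that match by name only, Gnb1l, Rgs9bp (an anchor of Rgs9) and the pseudogene Gng5-ps, were not called either, the last with 159, 257 and 254 against 281, 263 and 262.

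**Figure D4:**
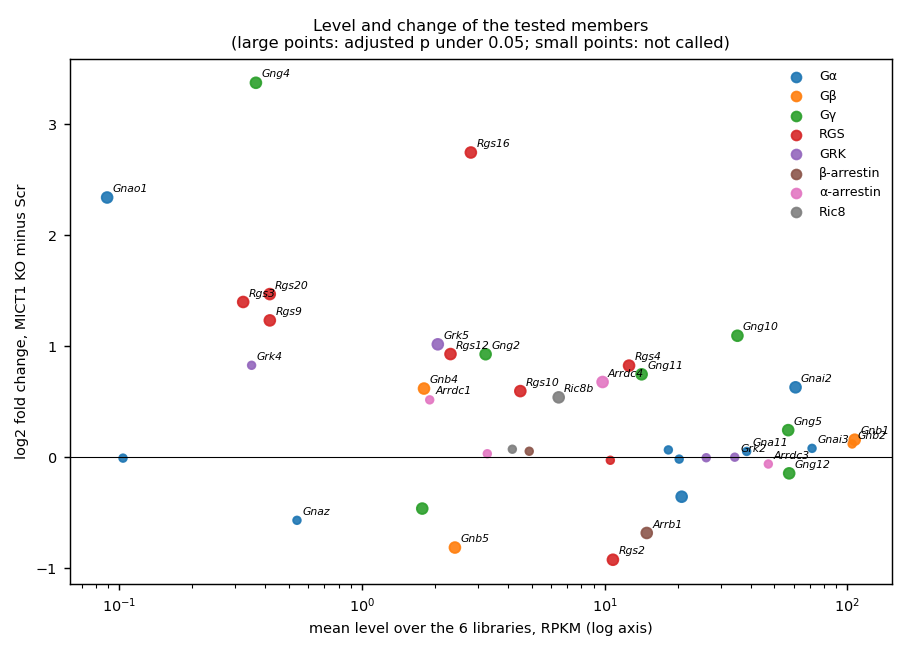
Log2 fold change (MICT1 KO minus Scr) of the tested members of the 8 classes against their mean level over the 6 libraries in RPKM (log axis), with large points for called genes. The largest rises, Gng4, Rgs16 and Gnao1, are of genes at low levels, and among genes above 10 RPKM Gng10 at 1.09 has the largest rise and Rgs2 at -0.92 the largest fall.

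Around the members, 30 of 39 listed regulators, effectors and ligases were tested, of which 11 were higher and 9 lower (median log2 change 0.087), where 28.5% and 28.3% of all genes were called higher and lower. The effectors of Gαq divided: phospholipase Plcb1 had 128, 86.2 and 120.1 in Scr, against 19.1, 27.4 and 29.0 in MICT1 KO and fell by 2.10 on the log2 scale (adjusted p = 1.47e-06), while Plcb3 rose by 0.74 (adjusted p = 7.24e-08) and Arhgef25, another effector of Gαq, by 1.30 (adjusted p = 6.19e-08). Plcb4 was not called (-0.61, adjusted p = 0.202). Per length in Scr, Plcb3 stood at 6.29 RPKM and Plcb1 at 0.613. Of the Gpsm proteins, which hold Gαi in its GDP form, Gpsm2 was not called, and those of lower level rose, Gpsm1 (104, 144 and 101 against 331, 333 and 419.8) by 1.64 (adjusted p = 2.29e-08) and Gpsm3 (11.9, 14.8 and 7.12 against 81.0, 40.0 and 28.0) by 1.96 (adjusted p = 0.000705). Ccdc88c, a non-receptor activator of Gαi, had 31.7, 39.9 and 23.4 against 1.91, 3.16 and 12.4 and was lower by 2.55 (adjusted p = 0.000784), with -2.09 without knockout library 1, -3.20 without knockout library 3 and -1.86 at a pseudocount of 5. It reached a signal of 10 in 3 Scr libraries and 1 knockout library, so its entry to the test leaned on Scr. Ccdc88a, the other Ccdc88 gene on the list, was not called (0.19, adjusted p = 0.207). In Scr it stood at 6.12 RPKM, against 0.170 for Ccdc88c. Pik3r5, the Gβγ-binding subunit of PI3Kγ, had 14.8, 21.3 and 16.3 against 41.0, 62.2 and 51.8, a rise of 1.51 (adjusted p = 0.000791). Txnip, an α-arrestin outside the naming rule that glucose also raises, had 7309, 8349.8 and 6969.5 against 20852, 18469.8 and 18593, a rise of 1.36 (adjusted p = 2.27e-13) in the same direction as Arrdc4. Of the ubiquitin ligases on that list, singled out after their values were seen, Wwp1 (1202, 1124 and 1239 against 673, 677 and 769) was lower at -0.75, Itch at -0.51, Nedd4l at -0.43 and Nedd4 at -0.21, and Wwp2 was not called.

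The RNA of differentiation markers differed between the groups. All 10 adipocyte markers tested, among them Adipoq, Plin1 and Fabp4, were lower in MICT1 KO, and their summed normalised signal was 128193 to 153110 in Scr and 14983 to 21468 in MICT1 KO. Of 6 preadipocyte and fibroblast markers tested 3 were higher (Pdgfrb, Ly6a and Col1a1) and 2 lower (Dlk1 and Pdgfra), and Col3a1 was not called. The log2 fold change of Dlk1 was -3.47. The summed signal of this list was 36490 to 41757 in Scr and 49730 to 53503 in MICT1 KO. Col1a1, a large part of it, had a mean of 17955 in Scr and 30595 in MICT1 KO. Brown markers were represented by 4 of 8 genes, with Ucp1 lower and Ebf2 higher and a low sum of 182 to 218 against 268 to 361, and Cidea, Dio2, Prdm16 and Elovl3 were not analysed here. Ucp1, like Adipoq, entered the test only through its Scr libraries, so the differences of both were built into their entry. Of the macrophage list 4 of 8 genes were in the table and 1, Cd14, was higher (sum 267 to 384 against 516 to 638). Cdh5, the single endothelial marker present, was higher at 25.9 to 33.4 against 5.93 to 12.1, with 1 Scr library and 3 knockout libraries at a signal of 10 or more. Neither of the 2 muscle markers present was called. The part of these differences in the changes of the members was not tested, and in bulk RNA fewer adipocytes and less of a transcript per adipocyte cannot be told apart.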

How the data were processed

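Total RNA of 6 samples was sequenced by Novogene. Per the labels the submitters' processing notes name Partek, STAR, DESeq2 and the builds GRCm38 and mm10. The values deposited by the authors are a signal, reads per gene divided by a library size factor; the libraries were strand-specific, and whether strand was used in counting is not given in the sources used here. Only 88.7% to 90.2% of values under 20 were whole multiples of 1 read (tolerance 0.01), so the main fit used no count model. As an alternative only, limma-voom, which is made for read counts, was run on these scaled values.

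Genes that reached a signal of 10 in 3 or more libraries were tested with limma 3.58.1 in R 4.3.3 (lmFit, eBayes with trend) on log2(value + 1), MICT1 KO minus Scr, two-sided, with Benjamini-Hochberg adjustment over 12507 genes. Fold changes on that scale understate low genes. On simulated data for this comparison (12402 genes), 99 of 100 genes changed by a log2 of 1 were called, 100 of 100 changed by 2, and 11 unchanged genes. The simulation gave all genes the same fixed dispersion and changed few genes, none of them at a low Scr signal. It therefore does not show how well changes in low members are called. RPKM was computed from the deposited values and exon lengths of GENCODE vM21, which covered 50 of 50 members. It is used to compare levels between genes and to describe class sums and shares in the 2 groups, for which no test was made. Promoter windows are from RefSeq and matched 38 of 50 members. Where a gene on the opposite strand overlaps a member, it covers 2.35% (Gna13) to 24.2% (Gng3) of the exon length, and over 10% in Gng3, Gng2, Gna12, Ric8a and Rgs16.

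Values in every library are given for members with at least 2-fold called changes, for the most abundant of each class per length and for the largest called rise and fall of each class, with others where a class is described; of the surrounding genes, for the 3 largest called rises and falls, while Txnip, Plcb3, Arhgef25 and the other ligases were added after their values were seen. The members and lists were chosen with earlier results of these data known, and Gng5-ps was put among the rows that match by name only after the table was seen. Alternatives were other scalings, pseudocounts and filters, limma-voom, a replicate block, and leaving out each library. Same-numbered libraries deviated from their group means with correlations of -0.024 to 0.064, and differently numbered ones with -0.043 to 0.056. These values gave no sign that the numbers pair the libraries, and the labels do not say.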

Additional observations from a re-analysis of the deposited data

How the results depend on the processing

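Of the 25 member calls, 21 held in every fit in which the gene could be tested, over 8 alternatives and 6 fits that each left out a library. The other 4, Gnb1, Gng7, Gng12 and Rgs10, lost the call in at least 1 fit, and 0 called members changed sign. Of 606 member values across these fits, 561 kept direction and side of the threshold, 16 lost a call, 8 gained one and 21 changed sign. By class, Gα had 1 higher call with a filter at 4 CPM in the highest library, Gγ had 1 lower call with no filter and 1 with the replicate block, and α-arrestins had 2 higher calls when scaled by library total and 2 at a pseudocount of 5. Leaving out a library gave 1 to 3 higher Gβ calls, 4 to 5 higher and 0 to 2 lower Gγ calls, 1 to 2 higher GRK calls and 1 to 2 higher α-arrestin calls. Members as a whole had 16 to 19 higher and 4 to 6 lower calls when a library was left out, and 16 to 21 higher and 5 to 6 lower under the other alternatives, with 21 higher when scaled by library total and 20 with limma-voom and at a pseudocount of 5. The filter at 4 CPM could not test Gnao1, Gng4 and Rgs20. Gng4 also dropped out of the test whenever a knockout library was left out, so it was fitted in only 10 settings. Its place among the 21 therefore rests on its entry through the knockout libraries and does not show that its call is stable.

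The replicate block used library numbers that gave no sign of pairing. With it 19 members were higher and 5 lower, the change being Gng7 (adjusted p = 0.0542), and it changed no other member call.

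Values that changed sign were all of uncalled genes near 0. Quantile normalization gave 0.046 for Gna13, 0.055 for Grk2 and 0.055 for Grk6. For Grk2, library-total scaling gave 0.0039 and limma-voom 0.0043. Leaving out a library gave -0.059 to 0.051 for Gna13, -0.49 to 0.40 for Gnal, -0.075 to 0.024 for Rgs19, -0.018 to 0.028 for Grk2, -0.030 to 0.028 for Grk6, -0.0015 to 0.15 for Arrb2, -0.019 to 0.094 for Arrdc2 and -0.017 to 0.23 for Ric8a. The cause was not tested. With 3 libraries per group, differences in genes with a signal under about 40, such as Gnal, Gnaz and Grk4, have wide intervals.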
